A study of Ovis aries with 60 samples.

Results

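In total, 249 CG cytosines had hardly any methylated reads in every sperm sample of the study. A cytosine counted as such (hereafter a member) when it lay on chromosomes 1 to 26, was listed in the CG data of all 3 generations, carried methylated calls on at most 10% of its reads in each of 40 samples, and had a median F0 coverage under 5 times the median of the F0 list. The members made up 0.379% (exact Clopper-Pearson 95% interval 0.333 to 0.429) of the 65712 CG cytosines on these chromosomes that were listed in all 3 generations. The rule used the levels of all 40 samples, so the number and the levels of the members are descriptions, with no test. All positions are those of the sheep assembly Oar_rambouillet_v1.0.

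The study asked whether a methionine-supplemented diet of sires left marks in the sperm DNA of their descendants. In F0, 5 Polypay rams received, on top of the control diet, 1.5 g of encapsulated methionine (an addition of 0.22%) between weaning and puberty (F0 treatment), and their 5 male twins received the control diet alone (F0 control). The F1 samples were 5 pools of sons of treated sires (F1 treatment) and 5 pools of sons of control sires (F1 control), each pool a mixture of several rams. The F2 samples were 10 grandsons of treated sires (F2 treatment) and 10 of control sires (F2 control), sequenced 1 ram at a time, with 2 rams for each F0 sire. All F1 and F2 animals were on control diets and the dams were untreated, and the same F0 sire stands behind several samples of a later generation, so p-values within F2 treat related rams as separate. DNA methylation was measured by whole-genome bisulfite sequencing, in which unmethylated cytosines are read as thymine, and the methylation level of a cytosine is the share of its reads that still show cytosine.

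In mammals, methylation is laid down on CG dinucleotides during the growth of the male germ line, and most of the sperm genome carries it. Stretches rich in CG, many of them at gene starts, are the known exception and stay free of the mark in the germ line and in most body cells. Cytosines in the CHG and CHH contexts (H is A, C or T) are for the most part hardly methylated in sperm, and calls of methylation there can be unconverted or misread bases. The paper also reports CHG and CHH cytosines that differ between the diets. What the calls near members are was not tested. Because bisulfite turns an unmethylated cytosine into a base read as thymine, a read-based level at a single position cannot tell an unmethylated cytosine from a thymine carried in the animals' own DNA.

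The list from which the members were taken was mostly methylated. Of the 65712 cytosines, 30824 (46.9%) had a mean level over 90% and 1205 a mean under 10%. Coverage of the members was that of the rest, with a median of 30 reads per member and sample (lowest 10, highest 238) against 30 reads for non-members. By generation the median was 33 reads at members and 32 at non-members in F0, 34 and 33 in F1, and 28 and 28 in F2. The shallowest sample was F2 control replicate 9, with a median of 12 reads at the members and 3680 reads over all of them, where the other samples had between 5584 and 12330. Of the members, 139 lay on the plus and 110 on the minus strand. Not a single member had the cytosine of the opposite strand listed in F0 or in F1. Of the 65712 shared cytosines, 742 (1.13%) had it listed in F0 and 733 (1.12%) in F1. In F2 the opposite cytosine was listed for 2 members, on chromosome 4 at position 120998204 with 19 methylated of 504 reads, and on chromosome 25 at position 4420814 with 8 of 557.

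The members were spread over all 26 chromosomes and mostly stood alone, with no other member within 2 kb. Only cytosines listed in all 3 generations could be members. Of the 300610 CG cytosines listed in F0 on these chromosomes, 24.6% were listed in F2. A member that stood alone can thus have CG cytosines close by that were not listed. Chromosome 1 held 44, chromosome 6 held 23, chromosome 3 held 21 and chromosome 2 held 20, whereas chromosomes 24 and 26 held 1 each. Over the whole list there were 3.79 members per 1000 shared CG cytosines. The rate ran from 0.947 per 1000 on chromosome 26 to 8.07 per 1000 on chromosome 20, and the 95% interval of each of the 26 chromosomes contained the overall rate. These intervals treat clustered members as independent and cover counting error only.

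The distance from a member to the next on the same chromosome had a median of 4.04 Mb (quartiles 0.884 and 12.3 Mb), with 63.5 Mb as the longest and 3 bp as the shortest. Adjacent CG cytosines of the much denser shared list lay a median of 8926 bp apart, and 39.3% of those distances were at most 2 kb. Of the 223 member distances, 30 (13.5%) were at most 2 kb, and 22 of these were at most 100 bp. Both shares come from lists of unlike density and are not compared, and clustering beyond that density was not tested. Joined at gaps of at most 2 kb, the 249 members fell into 205 lone cytosines and 14 clusters that together held 44 members. There were 9 clusters of 2, 1 of 3, 3 of 4 and 1 of 11.

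The levels of the cytosines around the members ran over the whole range, with the most members at both ends. For each member, the listed CG neighbours within 2 kb that were not members themselves were taken from the F0 list, and their levels averaged over the 10 F0 rams. A neighbour was found for 229 of the 249 members. The median of a member's neighbours had a median of 68.5% over the members (quartiles 20.5 and 92.6%), against 88.5% (61.7 and 94.7%) over the 58146 non-members with a neighbour. This middle value describes few members, because 51 of the 229 (22.3%) had neighbours under 10% and 71 (31.0%) had neighbours over 90%. The corresponding shares of non-members were 0.726% and 47.0%. Limits of 20% and 80%, set after these values were seen, gave 57 members with low neighbours, 80 with intermediate neighbours and 92 with high neighbours, besides the 20 with none.

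**Figure D1:**
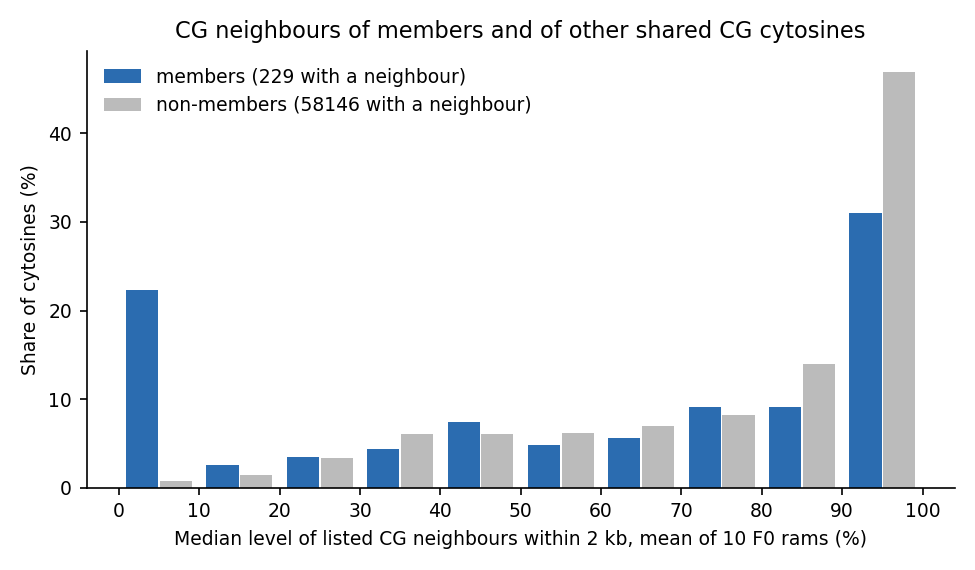
Share of cytosines (vertical axis, %) by the median level of their listed CG neighbours within 2 kb (horizontal axis, %, mean of 10 F0 rams), for 229 members and 58146 non-members with a neighbour. Members have a peak under 10%, with 22.3% of them against 0.726% of non-members, and both have their highest bar over 90%.

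Members with low neighbours were 24.9% of the members with a neighbour, against 2.15% of non-members. Counted as 1 value per cluster, since these members share clusters, the share was 31 of 199, or 15.6%. With a limit of 5% in place of 10% in the rule, a setting chosen after seeing the data, the share of members, not of clusters, was 16 of 129, or 12.4%. Non-members are mostly methylated cytosines, and low neighbours were also found around other cytosines of low level. Of 81 cytosines that met the rule in only 39 samples, 13 had low, 28 intermediate and 28 high neighbours. Of 632 shared cytosines at most 10% in every F0 ram, members included, the counts were 110, 200 and 243. Members with low neighbours had a median of 14 listed neighbours within 2 kb, where the members with intermediate and with high neighbours had a median of 3. Members of a cluster share neighbours, which were counted once per member. The 31 unbroken runs under 20% that held members with low neighbours had a median of 6 listed CG cytosines, members included. For the 57 members with low neighbours, the nearest neighbour lay a median of 48 bp away at a level of 1.64% (quartiles 0.621 and 7.36%), and in all 57 it was under 20%. CG cytosines were also a larger part of the list around them. Of the listed cytosines within 100 bp of them, 20.7% were CG, compared with 4.08% around non-members, 3.446% around members with intermediate neighbours and 3.23% around members with high neighbours. At least 3 other CG cytosines were listed within 100 bp of 32 of the 57, against 6.57% of non-members.

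Members with high neighbours were the opposite case, a cytosine with hardly any methylated reads among methylated ones. They were 40.2% of the members with a neighbour, below the 61.0% of non-members. Intermediate neighbours were about as frequent around members (34.9%) as around non-members (36.9%). The members with high neighbours numbered 92, on 23 chromosomes, and 90 of them were alone within 2 kb. Their nearest listed neighbour was a median of 105 bp away, at 94.1% (quartiles 90.5 and 96.0%), and in 84 of the 92 it was over 80%. The grouping itself fixes most of this, since the nearest neighbour is among the neighbours that set it, and 57 of the 92 had at least 3. By distance, within 10 bp, the 8 listed neighbours had a median level of 94.7%, and between 1 and 2 kb the 59 neighbours had a median of 93.5%. Around the members with low neighbours, the median was 0.621% within 10 bp (10 pairs of a member and a neighbour) and 0.526% between 1 and 2 kb (105 pairs). Members of a cluster share neighbours, which were counted once per member, and 96 of these 105 pairs were of the 4 members at chr20:39724766-39724956. The other 9 had a median of 11.1%. The settings were read from F0 alone. The median over members with high neighbours was 93.8, 93.1 and 93.3% in F0, F1 and F2, and over those with low neighbours 1.04, 0.951 and 4.46%. A neighbour was listed for 85 of the 92 and 55 of the 57 in F1, and for 61 and 42 in F2. The listed neighbours differ between generations, and the medians are over different cytosines. For single members the median of the neighbours reached 30.1% in F1 and 52.4% in F2 among those with low F0 neighbours, and fell to 70.0% in F1 and 30.2% in F2 among those with high ones.

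**Figure D2:**
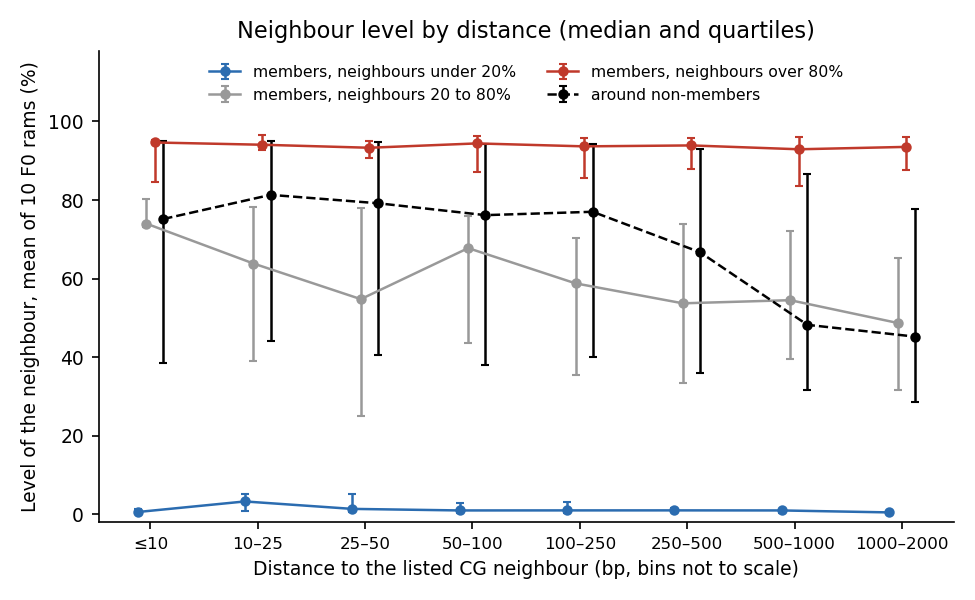
Level of listed CG neighbours in F0 (vertical axis, %, mean of 10 rams) by distance in bp from the cytosine (horizontal axis, bins not to scale). Points are medians and bars quartiles over neighbours, for members with low, intermediate and high neighbours and for non-members. Around members with high neighbours the median stayed between 92.9 and 94.7% in every bin, and around those with low neighbours between 0.526 and 3.31%, with neighbours counted once per member and 96 of the 105 pairs of the last bin from 1 cluster. The groups were set by the levels of the same neighbours, so their order follows from the grouping.

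The largest cluster, with 11 members, lay at chr6:79058967-79059422. It sat inside a run of 48 CG cytosines listed in F0, at chr6:79058833-79059551 (719 bp), all with an F0 mean under 20% and with a median of 0.974%. The next listed cytosines outside were at 92.0%, 13103 bp to the left, and at 94.3%, 4526 bp to the right. Over its 11 members, 247 of 24221 reads were methylated (1.02%), and no member exceeded 7.69% in any sample. These members were deep, with a median F0 coverage of 72 reads, where the median of the F0 list was 22.5.

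By ram, the summed reads of these 11 members had a methylated share of 0.830, 0.107, 0.396, 1.22 and 1.25% in F0 treatment and 0.561, 1.41, 0.571, 0.718 and 1.17% in F0 control. In F1 it was 1.31, 1.39, 0.667, 0.909 and 1.16% in the treatment pools and 1.27, 1.31, 0.908, 0.871 and 1.05% in the control pools. In F2 it ran from 0.447% to 2.42% (median 1.26%) in treatment and from 0.454% to 1.62% (median 0.859%) in control. The 2 diets overlapped in each generation, and the F0 means of 0.759% ± 0.502 (SD, n = 5) and 0.888% ± 0.386 (SD, n = 5) were closer than the spread between rams.

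**Figure D3:**
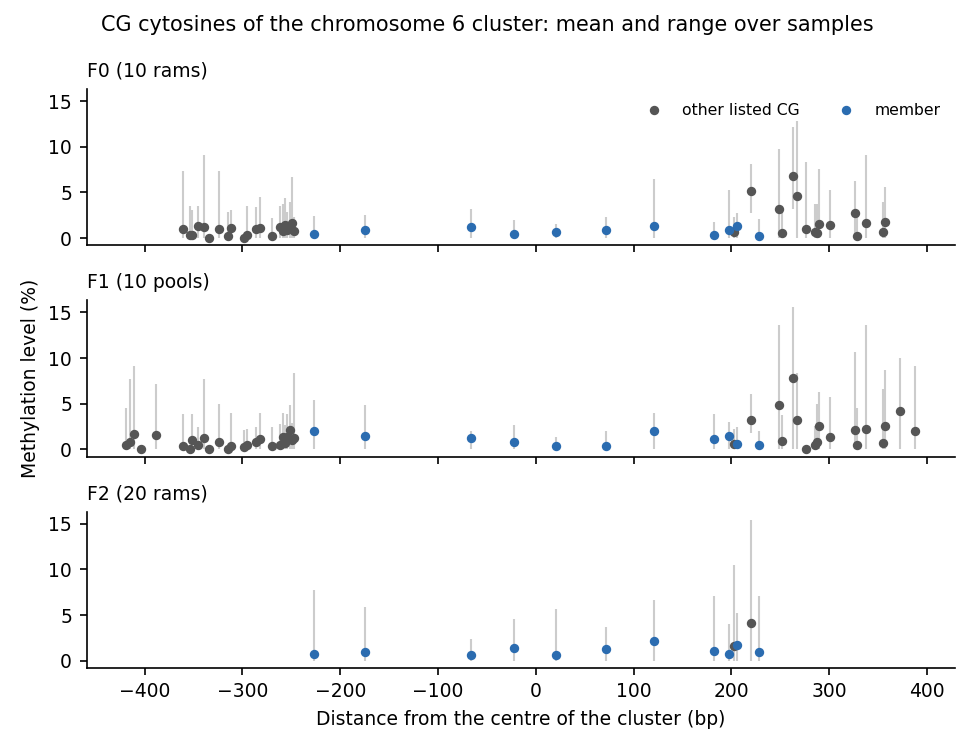
Methylation level (vertical axis, %) of every listed CG cytosine of the chromosome 6 cluster by distance from its centre (horizontal axis, bp), in F0, F1 and F2. Points are means over samples, grey lines run from the lowest to the highest sample, and the 11 members are in blue. The highest mean is 6.78, 7.77 and 4.11% in the 3 generations, with 48, 55 and 13 cytosines listed.

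The clusters of 4 members also lay in runs of low cytosines. The one at chr20:39724766-39724956 lay in a run of 33 cytosines under 20% over 1721 bp, which a gap of 1016 bp without a listed CG cytosine split. The 24 cytosines beyond the gap, 1298 to 1581 bp from the centre of the cluster, had a median of 0.526%. The 4 non-members within 250 bp of the centre were higher, at 14.3 to 34.6% (median 15.7%). The members had 89 methylated of 8057 reads (1.10%). The cluster at chr1:165890241-165890445 was in a run of 21 cytosines over 605 bp, with 42 methylated of 7536 reads (0.557%). The cluster at chr1:67318324-67318624 was in a run of 18 over 717 bp, with 20 of 5648 reads methylated (0.354%). The cluster of 3, at chr22:24203603-24203720, was in a run of 16 over 395 bp and had 40 of 3331 reads methylated (1.201%). The runs are those of the F0 list, and fewer cytosines were listed in F2. Members included, these were 7 around the chr20 cluster, 4 around each chr1 cluster and 4 around the chr22 cluster.

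For these 4 clusters as well, treatment and control means of a generation differed by less than the larger SD of the 2 groups. This too is a description and no test of diet, as the rule bounds these levels in both diets. The chr20 cluster stood at 0.772% ± 0.742 (SD, n = 5) in F0 treatment and 0.901% ± 0.341 (SD, n = 5) in F0 control. In all, the 57 members with low neighbours lay in 31 such runs, which held between 2 and 48 listed CG cytosines over 45 to 2034 bp. Of these runs, 19 had at least 5 listed cytosines and held 44 of the 57 members.

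The remaining clusters were pairs, and not all of them lay in low stretches. A pair at chr18:11503692-11503904 had 10 methylated of 3851 reads, while its neighbours had a median level of 96.4%. A pair at chr13:27246635-27246661 had 2 of 2289 reads methylated among neighbours at 70.3%. Conversely, the pair at chr7:47866790-47866822 had 62 of 2818 reads methylated, 2.20%, the highest of the 14 clusters, in a run with a median of 1.17%.

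Among lone members with at least 3 neighbours, 114 in number, the highest neighbour level surrounded the cytosine at chr17:8423022-8423022 on the plus strand. It had 0 methylated of 1431 reads over the 40 samples, which allows a share of up to 0.210%, while its 3 neighbours had a median of 97.9% and the nearest, 218 bp away, stood at 98.8%. The cytosine at chr1:235033018-235033018 had 5 methylated of 935 reads, and a neighbour only 14 bp away was at 97.4%. Its level was 0 in 35 samples, 2.94 to 3.70% in 2 F0 rams, 1 F1 pool and 1 F2 ram, and 8.33% (1 of 12 reads) in F1 treatment replicate 2. The cytosine at chr6:62437762-62437762 had 6 methylated of 1605 reads with a neighbour at 96.3% at 54 bp. All 6 reads came from 4 F2 treatment rams, 3 of them from replicate 2 (7.69% of 39 reads), and the other 36 samples were at 0.

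The lone members with the lowest neighbours carried more methylated reads. At chr12:80389224-80389224, 14 of 883 reads were methylated (1.59%), with 3 neighbours at a median of 0.686%. The level was 0 in all 10 F0 rams, above 0 in 6 of 10 F1 pools, with 9.52% as the highest, and above 0 in 5 of 20 F2 rams. At chr2:144599736-144599736, 6 of 918 reads were methylated, in 6 samples spread over the 3 generations. At chr20:29508361-29508361, 12 of 888 reads were methylated (1.35%), with levels above 0 in 1 F0 ram and 8 F2 rams and the nearest neighbour 17 bp away at 1.35%.

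The few methylated reads at members were not shared out evenly. Over all members and samples, 1738 of 347345 reads were methylated (0.5004%), and 8655 of the 9960 pairs of member and sample (86.9%) had none. In 66 members no methylated read was seen in any sample. These had between 691 and 2625 reads each, so that a count of 0 allows a share of up to 0.434% at the shallowest and 0.114% at the deepest. Over the 249 members the methylated share had a median of 0.353% and a maximum of 3.07%, and it exceeded 1% in 28 members.

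Members with low neighbours had 806 methylated of 84385 reads (0.955%), and 3 of 57 had none. Members with high neighbours had 419 of 122063 (0.343%), and 33 of 92 had none (35.9%). Members with intermediate neighbours had 445 of 120924 (0.368%), with none in 23 of 80, and those without a listed neighbour had 68 of 19973 (0.340%), with none in 7 of 20. Reads per member had medians of 1263 at low, 1316.5 at intermediate and 1191.5 at high neighbours, and of 964 at members without a listed neighbour. The chromosome 6 cluster contributed 247 of the 806 methylated reads of the members with low neighbours.

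**Figure D4:**
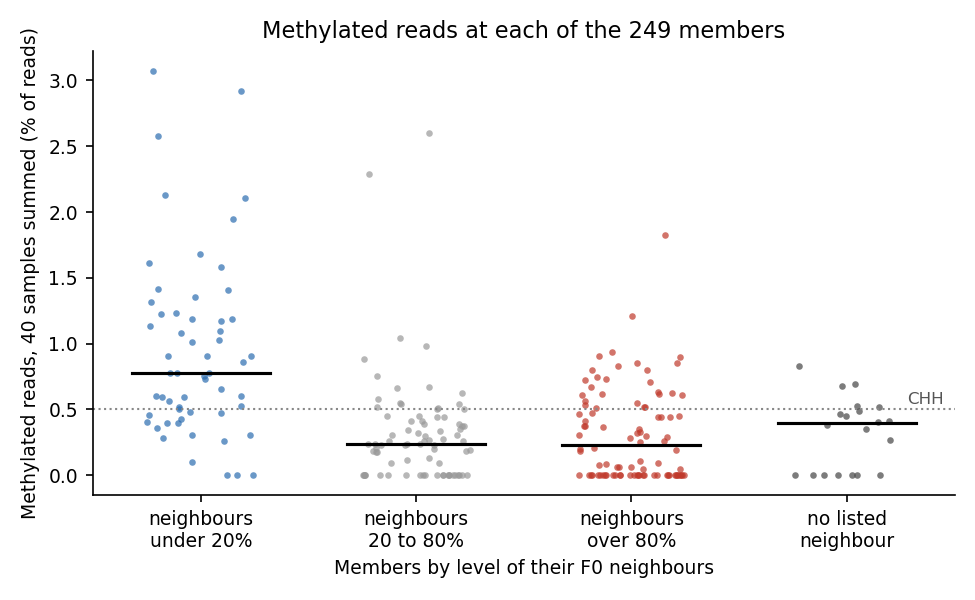
Methylated reads at each of the 249 members (vertical axis, % of the reads of 40 samples summed), by the level of their F0 neighbours. Each point is a member, and black lines are medians (0.777% at low, 0.240% at intermediate and 0.230% at high neighbours, 0.395% with none). The dotted line is the mean CHH level within 100 bp of all members together (0.502%). The line includes the 10 CHH cytosines of most methylated reads, which held 32% of these reads in F0 and F1 and 22.6% in F2.

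The level of CHH cytosines within 100 bp was set beside that of the members in the same samples. It was taken around all members together, and it is not a measured error rate. The methylated share of these CHH cytosines was 0.464% ± 0.0354 (SD, n = 10) in F0, 0.446% ± 0.0343 (SD, n = 10) in F1 and 0.548% ± 0.0362 (SD, n = 20) in F2. Summed over all members, the CG share was 0.427% ± 0.0540 (SD, n = 10), 0.523% ± 0.112 (SD, n = 10) and 0.534% ± 0.100 (SD, n = 20), and it was above the CHH share of the same sample in 18 of 40 samples. CHH cytosines around other shared CG cytosines had a lower share, 0.389% ± 0.0117, 0.383% ± 0.00637 and 0.522% ± 0.0156 in F0, F1 and F2 (SD, n = 10, 10 and 20), and the members' summed share was above it in 30 of 40 samples, those with high neighbours in 7 and those with low neighbours in 40. Against the CHH share near members, those with high neighbours were above it in 4 of 40 samples, with 0.287% ± 0.0988 in F0, 0.342% ± 0.180 in F1 and 0.363% ± 0.163 in F2 (SD over 10, 10 and 20 samples). Members with low neighbours were above it in 40 of 40, with 0.827% ± 0.157, 0.984% ± 0.245 and 1.03% ± 0.207. With CHH cytosines of very deep coverage left out, the counts were 2 and 39 of 40. A few CHH positions weighed on this level, as the 10 with the most methylated reads held 32% of them in F0 and in F1 and 22.6% in F2. The same 10 had only 0.691, 0.278 and 5.73% of all CHH reads near members in F0, F1 and F2. What their methylated calls are was not tested. With these 10 left out, the CHH share fell by construction, to 0.318% ± 0.0219 in F0, 0.304% ± 0.0169 in F1 and 0.450% ± 0.0250 in F2 (SD over 10, 10 and 20 samples). Members with high neighbours were then above it in 15 of 40 samples (3 of 10 in F0, 7 of 10 in F1 and 5 of 20 in F2), and members with low neighbours in 40 of 40. The members with low neighbours were above those with high neighbours in 39 of 40 samples, F2 treatment replicate 6 being the exception. All of these levels are bounded by the 10% limit of the rule, and no test was made on them.

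**Figure D5:**
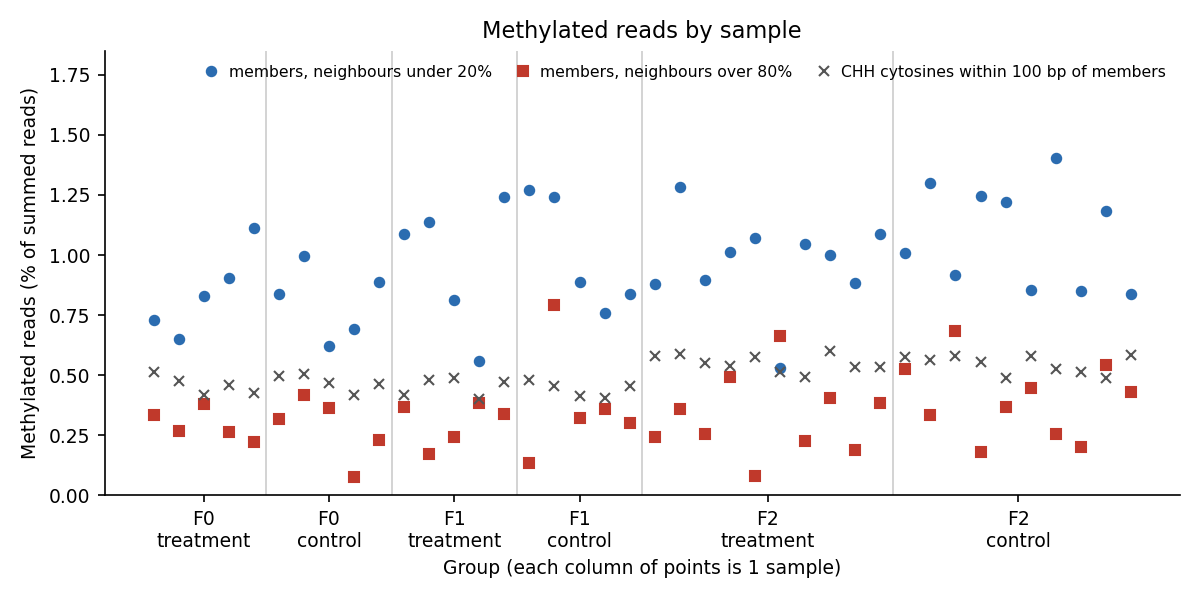
Methylated reads (vertical axis, % of summed reads) in each of 40 samples (horizontal axis, by group) at members with low neighbours (blue) and at members with high neighbours (red). Crosses are CHH cytosines within 100 bp of all members together, not of either class. Blue points lie above the crosses in 40 of 40 samples and red points in 4, or in 15 with the 10 CHH cytosines of most methylated reads left out.

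CHG cytosines within 100 bp of members gave 0.702% ± 0.102 (SD, n = 10) in F0, 0.677% ± 0.130 (SD, n = 10) in F1 and 1.56% ± 0.380 (SD, n = 20) in F2. They were above the CHG share around other shared CG cytosines, 0.411%, 0.406% and 0.581%, in 40 of 40 samples. Methylated reads near members were concentrated on few positions. The 10 CHG cytosines with the most methylated reads held 57.0, 60.2 and 78.3% of them in F0, F1 and F2, and without these 10 the mean share over samples was 0.337%, 0.301% and 0.485%. The 10 were chosen by their methylated reads and none were left out around other CG cytosines, so this lowers the share by construction and is no comparison with the latter.

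At the edge of the rule, a few reads separated members from non-members. Of the members, 6 had a highest level of exactly 10%, and the 3 with the most reads are given. The cytosine at chr8:9711804-9711804 was a member with 10.0% in F2 control replicate 9, which was 1 of 10 reads. That at chr15:64006957-64006957 reached 10.0% in F0 control replicate 4 (2 of 20 reads), and that at chr10:19666181-19666181 in F1 control replicate 2 (4 of 40 reads). Just outside were chr3:131746282-131746282, with 10.3% in F2 treatment replicate 8 (4 of 39 reads), chr12:31765796-31765796, with 10.5% in F1 control replicate 4 (2 of 19), and chr6:79059397-79059397, with 10.5% in F2 control replicate 2 (2 of 19). The last lies within the chromosome 6 cluster.

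A further 81 cytosines met the rule in 39 of the 40 samples, and several of them were far above the limit in the remaining one. The level in that sample had a median of 21.7% and ran from 10.3% to 62.5%, and 45 of the 81 were over 20%. The exception was an F0 ram at 4 cytosines, with levels of 11.1 to 11.8%. It was an F1 pool at 29 cytosines (median 16.7%, highest 38.5%) and an F2 ram at 48 (median 35.0%, highest 62.5%). The exceptions were spread over 26 samples, with at most 8 in any of them.

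Within F2, the exceptions had a median of 42.9% with high neighbours (17 cytosines), 33.0% with intermediate (16), 16.7% with low (11) and 51.7% with none (4). In F1 the medians were, in the same order, 16.7% (11), 17.0% (9), 21.7% (1) and 14.6% (8). The highest 3 levels, named after their values were seen, were all in F2 rams and among high neighbours. At chr6:77419429-77419429, F2 treatment replicate 5 had 15 of 24 reads methylated (62.5%), and the other 39 samples together had 5 of 1370. At chr3:9240078-9240078, F2 control replicate 1 had 14 of 23 (60.9%) against 1 of 1059 in the others, and at chr10:89396451-89396451, F2 treatment replicate 3 had 10 of 17 (58.8%) against 0 of 969. F0 and F1 had 10 samples each and similar depth at members (medians of 33 and 34 reads). They differ in generation and pooling, which cannot be told apart. F2 differs from F0 in generation, depth and number of samples, which cannot be told apart either.

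To see how low levels in F0 carried over to samples that the choice had not used, cytosines were chosen in the 10 F0 rams alone. At most 10% in every F0 ram and under the coverage limit were 2930 cytosines on chromosomes 1 to 26. Of these, 2156 (73.6%) were listed in F1, where 73.9% of all F0 cytosines of these chromosomes were, and 713 (24.3%) in F2, where 24.6% were. In F1, 1245 of the 2156 (57.7%, exact Clopper-Pearson 95% interval 55.6 to 59.8) were at most 10% in all 10 pools. In F2, 45.0% of the 713 (41.3 to 48.8) were so in all 20 rams. By their mean, more stayed low: 2044 of 2156 (94.8%) had an F1 mean under 10%, and 627 of 713 (87.9%) an F2 mean under 10%. The highest means were 24.2% in F1 and 39.2% in F2. F2 had more samples and fewer reads than F1, both of which make it harder to stay at or under 10% throughout, so the shares are not compared.

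Of the 632 F0-chosen cytosines listed in all generations, 249 were the members. The share that became members was 57 of 110 with low neighbours (51.8%, 42.1 to 61.4), 80 of 200 with intermediate neighbours (interval 33.2 to 47.1%), 92 of 243 with high neighbours (37.9%, 31.7 to 44.3) and 20 of 79 with none (25.3%, 16.2 to 36.4). The intervals treat cytosines of a cluster as independent, although the 57 lay in 31 clusters, lone ones included, and the 92 in 91. Median F0 coverage of the members was 36 reads at low, 34.75 at intermediate and 31 at high neighbours and 23 without any, and its part in these shares was not tested.

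The rule holds every member at 10% or less in both diets, which largely fixes the outcome of a comparison between them, so the counts are given as a description. Reads were summed over each group and tested with a likelihood-ratio test of a logistic regression, adjusted by Benjamini-Hochberg over all CG cytosines listed for the generation. Of the 249 members, 0 had an adjusted p of at most 0.01 in F0, in F1 or in F2. Over all listed CG cytosines, the share that passed was 2.91% in F0, 1.50% in F1 and 6.63% in F2. At an unadjusted p under 0.05 were 4, 9 and 17 members in F0, F1 and F2 (1.61, 3.61 and 6.83%, against 16.0, 13.1 and 19.1% of all listed). The test on summed reads ignores how much rams of a group differ. limma, which takes this into account, called 0 members but also 0 of all listed cytosines in each generation, so that it says nothing about members. Under an unadjusted p of 0.05 it had 0 members, and 4.11, 4.82 and 2.96% of all listed cytosines in F0, F1 and F2. It draws the variance of each cytosine towards that of all listed ones, and the rule keeps the differences at members small. This 0 was therefore largely fixed as well.

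The mean level over members was 0.379% in F0 treatment and 0.402% in F0 control, 0.491% and 0.452% in F1, and 0.459% and 0.515% in F2. The difference at a member, treatment minus control, had a median of 0 points in each generation and ran from -2.59 to 2.03 points in F0, from -2.87 to 3.08 in F1 and from -2.28 to 2.35 in F2. In F0, 63 members were higher in treatment, 64 lower and 122 equal, with a difference of mean levels of exactly 0. The counts were 65, 74 and 110 in F1 and 69, 100 and 80 in F2.

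The smallest p in F0 was at chr6:79059391-79059391, a member of the 11-member cluster, with 1.79% ± 2.17 (SD, n = 5) in treatment (0 to 5.26%) and 0 in all 5 control rams (adjusted p = 0.193, likelihood-ratio test over all CG cytosines). In F1 it was at chr6:1602157-1602157, with 2.65% ± 3.74 (SD, n = 5) in the treatment pools (0 to 7.89%) and 0 in all control pools (adjusted p = 0.0935, same test and adjustment). In F2 it was at chr10:45426040-45426040, with 0 in all 10 treatment rams and 2.04% ± 3.502 (SD, n = 10) in control (0 to 8.82%, adjusted p = 0.0326, same test and adjustment).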

How the data were processed

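Sperm DNA of 40 samples was analysed. The authors trimmed reads with Trim Galore, aligned them to Oar_rambouillet_v1.0 with Bowtie2 in Bismark, removed duplicates and extracted calls. The deposited values are counts of reads and of methylated reads per cytosine and sample, not normalized, and no listed cytosine had fewer than 10 reads in any sample of that list. At 10 reads 1 methylated read is a level of 10%. The 120 columns of unmethylated reads were not used, nor was the F2 RNA, since gene positions on this assembly were not at hand.

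The members, classes and comparisons were chosen with earlier results of these data known. Clusters named in the text were the 5 with the most members, and 3 pairs chosen after their values were seen. Lone members named were the 3 with the highest and the 3 with the lowest neighbour median, and edge cytosines the 3 nearest the limit on each side (ties to more reads). Intervals are exact Clopper-Pearson at 95%, and these and the limits for a count of 0 (3 counts) cover counting error only. The intervals treat clustered cytosines as independent. The likelihood-ratio test was computed with SciPy and tested on simulated data, and limma 3.58.1 (R 4.3.3) was run on levels. Its fit was also blocked on consecutive sire numbers (treated number first), which the labels do not call twins. Deviations from group means correlated at 0.220 to 0.342 within these 5 pairs in F0 and 0.102 to 0.136 in F1, against at most 0.126 and 0.0480 in other treatment-control pairs. Other thresholds, windows, coverage minimums and left-out samples were tried. Replicates of one group are separate rams or pools.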

Additional observations from a re-analysis of the deposited data

Results flagged for a closer look

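In 78 sets of values from 1 group, the highest or lowest sample was compared with the next by Dixon's test, which chance passes in about 1 in 20 sets, and 7 sets had a sample that stood apart. The sets overlap, 2 of the 7 being the mean and the summed share of the same sample, and in 3 others every other sample was at 0, where any methylated read passes, so the count cannot be read against that share. Over all members, F1 control replicate 2 was the highest of its group, with a mean level of 0.667% and a summed share of 0.723%. Its share at members with high neighbours was 0.794%, the highest of the 40 samples. In the cluster at chr1:67318324-67318624, F0 treatment replicate 2 (1.03%), F0 control replicate 1 (0.855%) and F1 treatment replicate 3 (1.27%) had methylated reads where the other 4 of each group had none. In the cluster at chr1:165890241-165890445, F2 treatment replicate 8 was at 1.55%. The CHG share within 100 bp of members was 2.73% in F2 control replicate 9, the shallowest sample.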

How the results depend on the processing

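The number of members followed the threshold, with 66 at 0%, 141 at 5% and 377 at 20%, and the depth, with 54 at no fewer than 15 and 16 at no fewer than 20 reads in every sample. With a coverage limit of 2 times the F0 median in place of 5 times it was 183. With reads summed over each group it was 678, and without any 1 sample 249 to 257. Members at 5% formed 132 clusters, lone ones included, against 219. The median level of shared-list neighbours within 2 kb was 67.8% in F0, 68.4% in F1 and 71.3% in F2 (259 neighbours). From the list of each generation it was 57.5, 55.4 and 66.3%, with at least 3 neighbours 60.7, 62.9 and 65.3%, within 5 kb in F2 74.97%, and without any 1 F0 ram 67.4 to 69.1%. The F1 carry-over was 42.4% at a threshold of 5%, 71.4% at 20% and 60.1% at 20 reads, and the F2 carry-over 34.4% at 5% and 63.3% at 20 reads (30 cytosines). Without any 1 F0 ram, which lets more cytosines into the choice, they were 54.5 to 57.2% and 42.1 to 44.6%. With deep cytosines left out, the CHH share near members was 0.507, 0.497 and 0.661% in F0, F1 and F2, and the CHG share 0.499, 0.469 and 0.941%. With the 10 cytosines of most methylated reads left out, chosen after seeing the data, they were 0.318, 0.304 and 0.450%, and 0.337, 0.301 and 0.485%. The CHG share within 500 bp was 0.513, 0.533 and 1.11%, and within 2 kb 0.455, 0.468 and 0.943%. Where not said otherwise, the causes were not tested. The share with low neighbours, under settings chosen after seeing the data, was 31.6% with at least 3 neighbours, 12.4% at a threshold of 5% and 31.1% at 20%. That with high neighbours, 40.2% under the rule, was 37.5, 44.2 and 30.3% under the same settings. At the threshold of 20% it was thus slightly below the share with low neighbours.

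The count of members called for diet was 0 under every alternative run, leaving out each F0 ram or F1 pool and the pairing block included. The rule holds members at 10% or less in both diets and largely fixes this count, so its stability shows nothing about diet. limma, blocked or not, and the test with an overdispersion term also called 0 of all listed cytosines, so their counts of 0 say nothing about members. No opposite-strand share could be had, as no member had both strands listed in all generations, and comparisons with F2 RNA were not run. Depth limits each level: a member with 10 reads can only be 0 or 10%.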
